A study of Mus musculus with 14 samples.

Results

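The regions described here carried acetylated histone H3 lysine 9 (H3K9ac) at the ends of genes for noncoding RNAs in regenerating mouse liver. Overlapping peaks of 12 libraries were merged into 57979 regions, and 12375 of these held a peak in all 12. Of those, 2334 lay within 1 kb of an end of a RefSeq gene that is neither protein-coding nor a pseudogene. Removing every region that overlapped a protein-coding gene or came within 1 kb of a coding gene end left 483, and 445 of them were under 6000 bp wide. These 445 regions, with 7343 peaks and 558 noncoding genes, are the subject of the report. They were selected on the authors' peak calls, which must be present in all libraries, so their presence there is a matter of choice and not a result. The 2 widest regions kept were at Gm39247 (5827 bp) and at Gm14488, Mir3089 and Gm39782 (5924 bp), and the 2 narrowest left out were at Gm23144 (6088 bp) and at Lncppara, Mirlet7c-2, Mirlet7b and Gm34622 (6241 bp).

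The libraries were chromatin immunoprecipitations from liver of male C57BL6/J mice aged 2 to 3 months, taken 12 h after partial hepatectomy with antibody ab10812. The titles name 6 of them d22 and the other 6 pbs. The study asked how postponing the drop in blood glucose after the operation affects this mark, but titles and treatment labels disagree. The d22 libraries carry the label of vehicle (PBS at reduced strength) and the pbs libraries that of 22.5% dextrose, so groups are named by title and no treatment is assigned to either. Both pooled inputs carry the dextrose label. Peaks of all 6 d22 libraries were called against one control library and those of all 6 pbs libraries against another, so control and group cannot be told apart, and the headers do not name which pooled input each control was. The labels do not tie the libraries to different animals, and the p-values below therefore measure the spread between samples that may be technical replicates. Tags left after filtering ran from 6343891 in d22 replicate 4 to 13259411 in pbs replicate 1, and d22 replicate 4 listed 44585 peaks, against 26352 to 30780 in the other libraries. All 9 hepatocyte markers had a region in all 12 libraries, with a summed level of 1757 to 2223 CPM in d22 and 2096 to 2384 CPM in pbs. CPM are a region's tags per 1000000 tags of the library in the 12375 shared regions. For single regions that total was multiplied by a TMM normalization factor, 0.987 to 1.0167 by library, and for the marker sums it was not. A region in all 12 libraries was found for 1 of 6 macrophage, 1 of 5 endothelial, 1 of 4 cholangiocyte, 1 of 4 lymphocyte, 1 of 4 erythroid and 0 of 5 stellate cell markers. In the same order, a region in any library was found for 4, 5, 1, 1, 2 and 3 of them.

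H3K9ac is deposited near transcription start sites of active genes and is read by factors that promote transcription. Noncoding RNAs fall into several families. Transfer RNAs and several small structural RNAs are made by RNA polymerase III, most spliceosomal RNAs by RNA polymerase II, small nucleolar RNAs (snoRNAs) are cut from introns of host transcripts, and microRNAs are cut from hairpins in longer transcripts. Long noncoding RNAs (lncRNAs) are transcribed by RNA polymerase II, often beside other genes or divergently from them.

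By gene type, 341 regions lay at lncRNA genes alone, 50 at a tRNA gene, 26 at an snRNA or another small structural RNA, 15 at a snoRNA or snoRNA host annotated with one, and 13 at a microRNA. A region with genes of several types was counted once, in the order tRNA, small structural RNA, microRNA, snoRNA and lncRNA. More than 1 noncoding gene lay at 88 of them, and 117 were called as exactly 1 peak in every library. Of the annotated tRNA genes, 142 of 430 (33.0%) had a shared region of any kind at an end and 87 were at the regions described here. The corresponding share was 15.6% for lncRNA genes, 14.98% for microRNA genes, 11.6% for snoRNA genes and 7.07% for snRNA genes. These shares count genes close to coding genes too, and copies that are near identical in sequence may be hard to align to.

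The microRNAs at these regions are shown first because their seeds, bases 2 to 8 of the mature RNA, determine pairing with targets. Of 17 microRNA genes, 16 had a sequence in RefSeq (GRCm38.p6). The 27 mature sequences of these 16 genes had 27 different seeds, so none of them shared one. The mature strands of the best known families are printed with the seed in capitals.
mmu-let-7i-5p (chr10:122985698-122985719, minus strand): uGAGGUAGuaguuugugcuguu
mmu-miR-130a-3p (chr2:84741116-84741137, minus strand): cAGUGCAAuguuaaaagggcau
mmu-miR-17-5p (chr14:115043684-115043706, plus strand): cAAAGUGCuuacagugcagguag
mmu-miR-18a-5p (chr14:115043867-115043889, plus strand): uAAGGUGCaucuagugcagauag
mmu-miR-19a-3p (chr14:115044048-115044070, plus strand): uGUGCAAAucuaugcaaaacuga
mmu-miR-203-3p (chr12:112130927-112130948, plus strand): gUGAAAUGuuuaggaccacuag
mmu-miR-137-3p (chr3:118433901-118433923, plus strand): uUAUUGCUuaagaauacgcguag

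The regions at Mirlet7i, Mir130a, Mir203 and Mir137 overlapped the hairpin itself. The region at the Mir17 cluster, whose microRNAs promote proliferation, ended 521 bp upstream of the Mir17 hairpin. It was weak, at 16.97 ± 7.61 CPM in d22 and 15.04 ± 8.54 CPM in pbs (SD, n = 6 each). At Mirlet7i, a let-7 family member that restrains growth genes, d22 libraries held 61.6 to 94.5 CPM (median 76.6) and pbs libraries 69.0 to 97.9 CPM (median 85.3). These ranges overlapped almost entirely, with a log2 fold change (d22 minus pbs) of -0.15 ± 0.12 (SE, edgeR adjusted p = 0.722). The strongest microRNA region was that of Mir130a and the lncRNA Gm19426, 2171 bp from the coding gene Ypel4 (chr2:84740826-84744693). It held 91.1 to 136.8 CPM (median 106.2) in d22 and 134.4 to 166.1 CPM (median 136.6) in pbs. The highest d22 library, replicate 5, exceeded 3 pbs libraries by a small margin and the other d22 libraries lay below all pbs libraries. The fitted log2 fold change was -0.39 ± 0.11 (SE), which did not pass over all regions (edgeR adjusted p = 0.115). Without d22 replicate 5 it was -0.47 and passed (edgeR adjusted p = 0.0421), as it did with DESeq2 (-0.39, adjusted p = 0.0442). Leaving out any other single library did not give a pass.

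H3K9ac tag density, counted per kb of called peak and averaged over the libraries, differed by RNA family. Its median was 76.4 tags per kb at snRNA and other small structural RNA regions, 60.6 at snoRNA regions, 57.0 at microRNA regions, 52.6 at tRNA regions and 46.8 at lncRNA regions. Over all 445 regions it was 49.4 tags per kb. It was 66.7 at the 8227 shared regions of the same width limit at coding gene ends, and 42.8 at the 796 with neither a gene end nor a coding span. In each of the 12 libraries the median at noncoding gene ends was lower than at coding gene ends and higher than at regions with no gene end. The peak threshold that every library had to meet sets a floor under all these densities, and the classes differ in size.

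**Figure D1:**
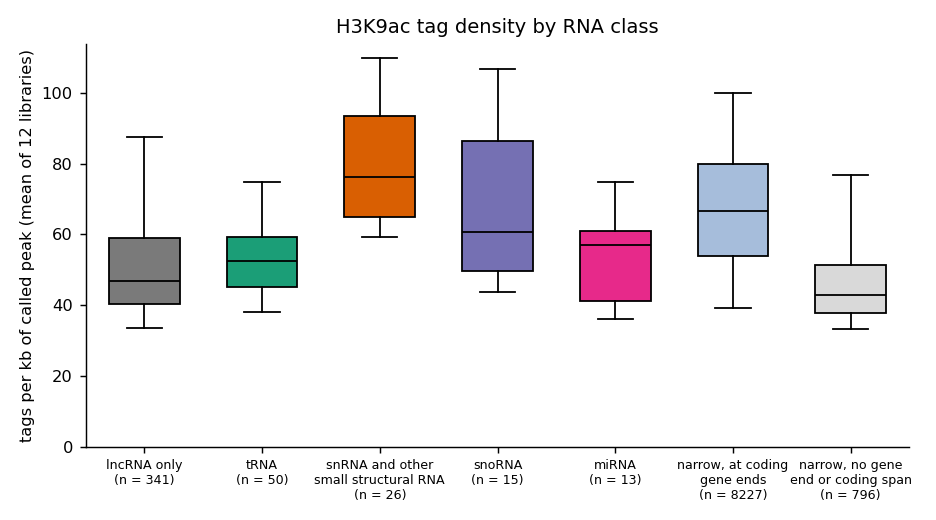
Tags per kb of called peak (vertical axis, mean of 12 libraries) for each RNA class and for narrow shared regions at coding gene ends or without a gene end (boxes: quartiles, line: median, whiskers: 5th to 95th percentile of regions). Small structural RNA regions have the highest median, 76.4, and lncRNA regions, at 46.8, lie just above regions without a gene end, at 42.8.

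The small structural RNA regions were not only dense but narrowly placed. The strongest summit of 16 of 26 lay 99 to 129 bp outside the annotated RNA gene (median over libraries), and in 14 it varied by under 35 bp (SD over the 12 libraries), as in 23 of 341 lncRNA regions. The median SD was 27.5 bp for this class, 129 bp for snoRNA regions, 146 bp for tRNA regions and 194 bp for lncRNA regions. The gene table gives no strand for these RNAs, so upstream and downstream are not distinguished. Their copies are near identical, so tags within a copy may belong to another, and how reads with several matches were handled is not given in the sources used here.

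Several of these genes stood in arrays. On chromosome 11, the snRNA genes Gm24950 and Gm23971 (each 191 bp) and Rnu2-10, which encodes the U2 RNA of the spliceosome, gave 3 regions between 101640618 and 101660203. Gm24950 had 104 ± 18.4 CPM in d22 and 89.8 ± 25.6 CPM in pbs, and Gm23971 had 103 ± 18.7 CPM in d22 and 93.4 ± 28.2 CPM in pbs (SD, n = 6 each). Rnu2-10 had 56.1 to 116.7 CPM (median 63.0) in d22, where replicate 4 stood apart, and 31.6 to 88.0 CPM (median 72.8) in pbs. Neither the 3 regions of this array nor 4 snRNA regions on chromosome 1 and 6 on chromosome 12 held a called difference. On chromosome 3 the snRNA genes Gm25890 and Gm22614 (each 165 bp) shared the region with the highest mean CPM of the class. It had 186.9 to 220.6 CPM (median 199.5) in d22 and 162.0 to 237.7 CPM (median 204.4) in pbs. The pbs libraries spanned the whole d22 range, and the log2 fold change was 0.002 ± 0.09 (SE, edgeR adjusted p = 0.997). Within 20 kb of it lay 2 tRNA regions, at n-TNgtt12 and at a run of 4 tRNA genes (n-TKctt16, n-THgtg8, n-TGtcc7, n-TEctc13).

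Among the other structural RNAs, Rn7sk encodes 7SK RNA, which holds the elongation factor P-TEFb inactive. Its region, shared with C920006O11Rik, had 58.4 to 67.1 CPM (median 63.0) in d22 and 57.7 to 115.6 CPM (median 90.7) in pbs. The d22 libraries were tightly grouped, while 5 of 6 pbs libraries lay above all of them and pbs replicate 1 below all of them. The log2 fold change was -0.48 ± 0.15 (SE, edgeR adjusted p = 0.177), and without pbs replicate 1 it was -0.58 and passed (edgeR adjusted p = 0.0392). That library was the one that went against the difference, and leaving out any other did not give a pass. The region at Rny1, a Y RNA bound by the Ro protein, had 50.4 ± 8.45 CPM in d22 and 38.3 ± 7.32 CPM in pbs (SD, n = 6 each, edgeR adjusted p = 0.351). Rn7s2, a gene of the signal recognition particle RNA, had 24.9 ± 6.35 CPM in d22 and 33.6 ± 5.49 CPM in pbs (SD, n = 6 each, edgeR adjusted p = 0.457). Terc, the template RNA of telomerase, had 40.8 ± 6.32 CPM in d22 and 39.0 ± 9.95 CPM in pbs (SD, n = 6 each). Rnu11, an RNA of the minor spliceosome, had 45.7 ± 6.73 CPM in d22 and 39.0 ± 9.21 CPM in pbs. Scarna2, which guides RNA modification in Cajal bodies, had 74.9 ± 10.9 CPM in d22 and 68.3 ± 8.31 CPM in pbs (SD, n = 6 each).

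The 50 tRNA regions held 87 tRNA genes with 39 of the 48 annotated anticodons, and genes for all 20 amino acids were among them. The share of a letter's tRNA genes found at these regions was highest for proline, 8 of 16, and leucine, 11 of 25 (44.0%), and lowest for cysteine, 1 of 56 (1.79%). These counts leave out regions near coding genes. With a shared region of any kind the share was highest for arginine, 16 of 24, with proline at 9 of 16 and leucine at 13 of 25. On chromosome 13 lay 11 of the 50 tRNA regions, all between 21 and 24 Mb. The 26 regions with a single tRNA gene had a median of 38.6 CPM, the 18 with 2 or 3 genes 51.6 CPM and the 6 with 4 or 5 genes 50.7 CPM. In the same order the median width was 2031.5, 2341.5 and 2564 bp, and the median density 49.9, 54.6 and 48.3 tags per kb. The summit was over, or within 200 bp of, a noncoding gene of the region in 18 of 50. Only tRNA genes lay at 32 of the 50, and at the others genes of another type counted too. The tRNA region with the smallest p, at n-TRcct2, n-TRccg2 and 6330415G19Rik (chr17:23548859-23552180), had 74.9 to 122.1 CPM (median 106.5) in d22 and 105.8 to 140.3 CPM (median 129.0) in pbs. The groups overlapped and the log2 fold change of -0.25 ± 0.11 (SE) did not pass (edgeR adjusted p = 0.394). Of the 50 tRNA regions, 1 had an unadjusted p under 0.05 (2.00%), against 10.9% of all 12375.

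SnoRNA host genes are transcribed for the snoRNAs in their introns, and the transcripts of many begin with a pyrimidine tract like that of ribosomal protein genes. The bases around RefSeq starts that fell inside these regions are shown for 4 of them, as 20 bases before the start, the start and 20 after. Capitals mark a C followed by at least 4 pyrimidines that begins within 5 bases of the start.
Snhg12 (chr4:132308658-132308698, plus strand): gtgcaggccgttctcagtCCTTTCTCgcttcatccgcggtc
Snhg7 (chr2:26640224-26640264, minus strand): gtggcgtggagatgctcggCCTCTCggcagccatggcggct
Snhg16 (chr11:116671640-116671680, plus strand): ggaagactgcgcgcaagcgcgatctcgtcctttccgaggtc
Snhg20 (chr11:117076763-117076803, plus strand): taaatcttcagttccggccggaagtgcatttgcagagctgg
Such a tract was present at Snhg12 and Snhg7 and at 2 of 9 host starts in all (22.2%), against 18.3% of all 32851 starts in the promoter table. In Snhg16 and Snhg20 no match lay within that window.

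The most strongly marked host was 1110038B12Rik with Snord52 (chr17:34949247-34954170), at 152.7 to 171.3 CPM (median 166.2) in d22 and 156.0 to 183.2 CPM (median 173.7) in pbs. The spread was small and the groups overlapped (log2 fold change -0.06 ± 0.07 SE, edgeR adjusted p = 0.843). The Snhg12 region, which also holds Snora16a, Snora44, Snora61 and Snord99, had 85.8 to 115.3 CPM (median 101.6) in d22 and 84.7 to 120.0 CPM (median 97.6) in pbs. Here too the ranges nearly coincided (log2 fold change 0.02 ± 0.10 SE, edgeR adjusted p = 0.966). Snhg15 had 113 ± 16.7 CPM in d22 and 101 ± 11.8 CPM in pbs, and Snhg17 had 113 ± 10.1 CPM in d22 and 121 ± 14.2 CPM in pbs (SD, n = 6 each). Dancr with Snora26 had 84.1 ± 7.57 CPM in d22 and 86.6 ± 4.54 CPM in pbs. The host with the smallest p was Snhg20 with Mir6516, at 65.1 ± 8.39 CPM in d22 and 78.6 ± 6.87 CPM in pbs (SD, n = 6 each), with a log2 fold change of -0.25 ± 0.10 (SE, edgeR adjusted p = 0.351). Snhg5 had 52.8 ± 12.8 CPM in d22 and 55.2 ± 12.1 CPM in pbs, AA465934 with Snord7 had 56.2 ± 7.54 CPM in d22 and 58.4 ± 8.31 CPM in pbs, and 2700038G22Rik with Snord93 had 34.5 ± 3.51 CPM in d22 and 36.1 ± 6.35 CPM in pbs (SD, n = 6 each). The Snhg20 region was counted with the microRNA regions and is not among the 15 snoRNA regions. An unadjusted p under 0.05 (edgeR) was found at 1 of 9 regions of listed hosts, against 10.9% of all 12375. Of the 15 snoRNA regions, 12 had a log2 fold change below 0, with a median of -0.06, while 50.9% of all 12375 lay above 0. By edgeR 0 of the 15 passed and 0 had an unadjusted p under 0.05, against 10.9% of all 12375. Of the RNA classes they had the smallest spread between libraries of a group, with a median SD of 0.22 on the log2 CPM scale, against 0.37 at lncRNA regions, 0.22 at coding gene ends and 0.24 over all shared regions.

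LncRNA genes made up most of the regions. A RefSeq start was listed for 314 of the 558 genes and for 296 regions. In 214 regions at least 1 start lay inside, and in 82 the listed starts lay outside. Where the start lay inside, the strongest summit was most often after it: it lay after the start in 166 regions and before it in 48, with a median of 248 bp after the start (quartiles 84.5 and 436 bp). In the single libraries this median ran from 210 to 278 bp. The summit was within 200 bp of the start in 57 regions. Regions holding the start had a median of 46.3 CPM, and those with the starts outside 31.4 CPM.

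**Figure D2:**
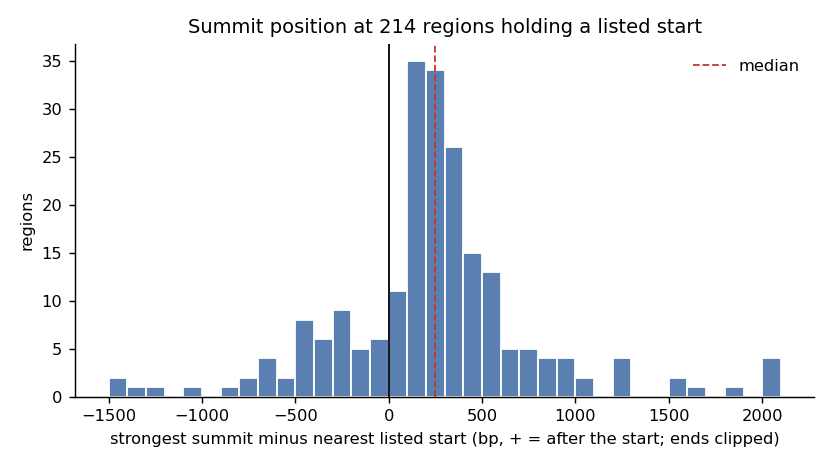
Number of regions (vertical axis) by the distance in bp from the nearest listed start to the strongest H3K9ac summit (horizontal axis, positive after the start, median over 12 libraries, extremes drawn at the ends) for the 214 regions that hold a start. Most regions lie to the right of 0, and the dashed line marks the median of 248 bp.

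The promoter sequences, 250 bases before a start and 50 after it, were richer in CpG where the start lay inside a region. The 281 starts inside had a median of 52.7% GC and 8 CpG, the 138 starts outside that belong to genes at these regions 46.8% GC and 4 CpG, all 11588 lncRNA starts 48.3% GC and 4 CpG, and coding starts 56.3% GC and 13 CpG. The GC box GGGCGG, read on both strands, was in 31.3% of the starts inside, 9.42% of those outside, 16.3% of all lncRNA starts and 35.7% of all starts. The E-box CACGTG, bound by Myc and ChREBP family factors, was in 29 of 281 starts inside (10.3%), 5.80% of those outside and 7.15% of all starts. The CCAAT box was in 32.4% of starts inside and 37.4% of all, and TATAAA in 20.6% of starts inside and 13.6% of all (both strands for each). Several starts can share a region, so these shares are descriptions.

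The lncRNA regions with the most tags were far above the median of 36.6 CPM. The region of 2410080I02Rik, 3346 bp from Klf9, had 205.9 to 233.3 CPM (median 220.0) in d22 and 199.6 to 255.1 CPM (median 218.6) in pbs. Chaserr, which restrains the neighbouring chromatin remodeller gene Chd2, had 117.6 to 226.3 CPM (median 213.6) in d22 and 165.7 to 304.6 CPM (median 225.4) in pbs. The lowest Chaserr value was that of d22 replicate 4. Dleu2, host of the miR-15 and miR-16 hairpins, had 154 ± 15.6 CPM in d22 and 166 ± 20.2 CPM in pbs, Gm32063 had 178 ± 37.3 CPM in d22 and 205 ± 26.7 CPM in pbs, and Gm41027 had 167 ± 20.3 CPM in d22 and 175 ± 24.8 CPM in pbs (SD, n = 6 each). Gm51701 had 178 ± 40.8 CPM in d22 and 157 ± 30.6 CPM in pbs. No group difference passed at these 6 regions (edgeR adjusted p from 0.640 to 0.959).

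Other lncRNAs of the nuclear and regulatory list, to which Dleu2 belongs, and the microRNA host Mir99ahg had fewer tags than the regions above. Oip5os1, which controls the level of a microRNA that it pairs with, had 48.4 to 77.2 CPM (median 70.7) in d22 and 72.6 to 104.3 CPM (median 87.1) in pbs, with a log2 fold change of -0.34 ± 0.12 (SE, edgeR adjusted p = 0.247). The group ranges overlapped only between 72.6 and 77.2 CPM. Norad, which binds Pumilio proteins, had 69.3 ± 11.2 CPM in d22 and 68.4 ± 10.6 CPM in pbs (SD, n = 6 each). Jpx, an activator of Xist, had 55.6 ± 14.6 CPM in d22 and 72.5 ± 17.6 CPM in pbs, and Pvt1, a neighbour of Myc, had 52.7 ± 3.87 CPM in d22 and 54.7 ± 15.5 CPM in pbs (SD, n = 6 each). Trp53cor1, a p53 target beside Cdkn1a, had 13.7 to 31.3 CPM (median 20.5) in d22 and 12.98 to 25.3 CPM (median 17.1) in pbs. Gm16551 had 54.3 ± 8.51 CPM in d22 and 54.5 ± 10.9 CPM in pbs, and Mir99ahg, host of the miR-99a cluster, had 48.2 ± 18.8 CPM in d22 and 44.0 ± 13.3 CPM in pbs. Bvht, which acts in heart development, had 35.9 ± 10.5 CPM in d22 and 25.3 ± 13.3 CPM in pbs, with pbs replicate 1 far above the other pbs libraries. None of these 8 passed.

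Between the title groups, 5 of the 445 regions passed edgeR's quasi-likelihood test with Benjamini-Hochberg adjustment over all shared regions (1.12%), against 125 of 12375 (1.01%). Of these, 3 were higher in d22 (background 0.453%) and 2 lower (background 0.558%), so the share was close to the background. An unadjusted p under 0.05 was found for 53 regions (11.9%, background 10.9%), 19 higher (background 5.07%) and 34 lower (background 5.83%). In 4 regions (0.899%) the CPM of the groups did not overlap, against 1.33% of all, with 3 higher in d22 (background 0.59%) and 1 lower (background 0.743%). The median log2 fold change was -0.03 over the 445 regions, of which 205 lay above 0, and 0.003 over all 12375, of which 50.9% lay above 0. The regions held 2.17 ± 0.0628% of a library's tags in shared regions in d22 libraries, against 2.22 ± 0.0528% in pbs libraries (mean ± SD of 6), a difference of -0.0450 percentage points. A smaller share of acetylated cells and less acetylation per cell cannot be told apart in these bulk libraries.

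**Figure D3:**
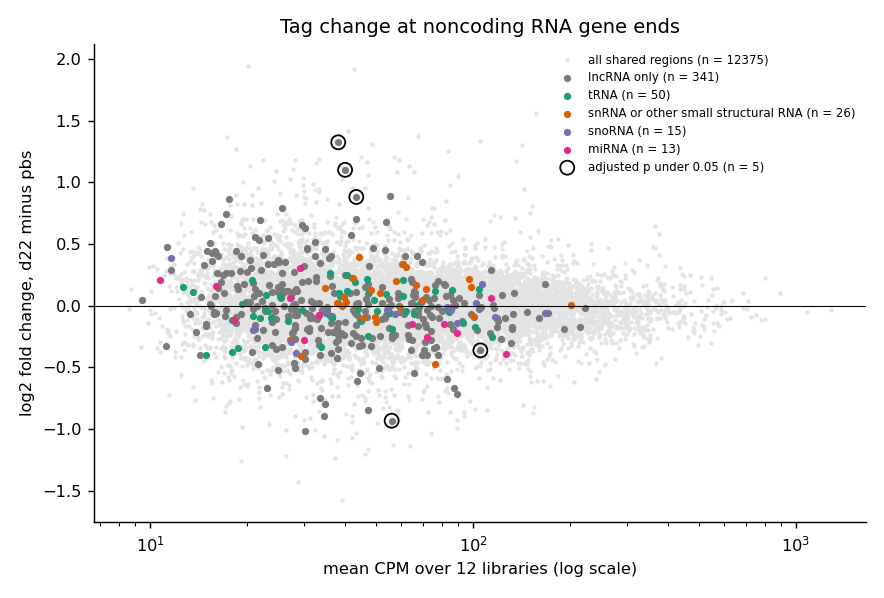
Log2 fold change of tags, d22 minus pbs (vertical axis), against mean CPM of the 12 libraries (horizontal axis, log scale) for all 12375 shared regions in pale grey and the 445 regions at noncoding gene ends coloured by RNA class. Circles mark the 5 with an adjusted p under 0.05, all at lncRNA genes, 3 above 0 and 2 below.

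By the gene lists, 2 regions lay at liver microRNAs or their hosts, 9 at snoRNA hosts, 8 at nuclear and regulatory lncRNAs and 64 at polymerase III and structural RNAs, and 0 at antisense partners of liver factors. By edgeR 0 passed in each list in either direction. Regions with an unadjusted p under 0.05 numbered 0 of 2 for the microRNAs, 1 of 9 for the hosts, 1 of 8 for the lncRNAs and 4 of 64 for the structural RNAs, against 10.9% of all 12375. The median log2 fold changes were 0.004, -0.04, -0.04 and -0.03, beside 0.003 over all regions tested.

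Other scalings, measures and tests gave other counts, set here beside the share of all 12375 regions. DESeq2 called 11 of the 445 regions (2.47%, background 2.2%), 4 higher in d22 (background 0.921%) and 7 lower (background 1.28%). With library totals as the only scaling 19 passed (4.27%, background 3.67%), 2 higher (background 0.21%) and 17 lower (background 3.46%), and there the median of all regions shifted to -0.22. The authors' fold enrichment over background, compared with limma, called 72 (16.2%, background 20.2%), 1 higher (background 1.34%) and 71 lower (background 18.9%), with a median of -0.30 over all regions. With the replicate number as a block 6 passed (1.35%, background 1.03%), 4 higher (background 0.525%) and 2 lower (background 0.509%).

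The region with the smallest p lay inside the lncRNA gene F730035M05Rik and over the start of Gm38467 (chr12:70229900-70233236). Its nearest coding gene, 2217 bp away, was Pygl, the glycogen phosphorylase of liver. The d22 libraries held 59.5, 62.8, 34.2, 80.6, 38.9 and 54.3 CPM, and the pbs libraries 26.6, 31.0, 10.2, 19.2, 23.2 and 18.3 CPM. All d22 values exceeded all pbs values, with means of 55.0 ± 16.9 CPM in d22 and 21.4 ± 7.24 CPM in pbs (SD, n = 6 each), with a log2 fold change of 1.33 ± 0.24 (SE, edgeR adjusted p = 0.00982). Its peaks covered 2299 bp in d22 and 1162 bp in pbs on average. Per kb of peak the log2 difference was 0.29 above the median of all regions and did not pass (limma adjusted p = 0.861).

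The Gm38467 promoter is shown with its 1 motif match, a CCAAT box, in capitals. The match lies among the 50 bases after the start. The strongest summit lay 167 bp after this start (median).
Gm38467 (chr12:70231461-70231760, minus strand): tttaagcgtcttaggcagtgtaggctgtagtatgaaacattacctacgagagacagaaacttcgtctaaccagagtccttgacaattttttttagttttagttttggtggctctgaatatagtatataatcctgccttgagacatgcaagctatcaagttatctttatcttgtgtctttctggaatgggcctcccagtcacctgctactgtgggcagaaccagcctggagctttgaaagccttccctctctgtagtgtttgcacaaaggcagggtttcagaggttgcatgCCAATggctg
It held 44.0% GC and 3 CpG, below the medians of the starts inside regions.

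The second was at an end of Gm29863, a lncRNA gene (chr19:33099664-33102153). It had 50.2, 49.9, 51.0, 74.9, 57.9 and 45.2 CPM in d22 and 30.8, 21.5, 21.1, 32.0, 35.6 and 11.6 CPM in pbs. The groups did not overlap (log2 fold change 1.10 ± 0.22 SE, edgeR adjusted p = 0.0213). Without pbs replicate 2 the edgeR adjusted p was 0.0536, and without pbs replicate 3 it was 0.0511. Per kb of peak the log2 difference was 0.61 above the median of all regions, the largest of the 5, and did not pass (limma adjusted p = 0.0974).

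The region just outside the lower end of Gm33662 (chr11:101926035-101928964) had 32.6 to 79.7 CPM (median 55.6) in d22 and 21.8 to 39.7 CPM (median 29.6) in pbs. All d22 libraries but replicate 5 exceeded all pbs libraries (log2 fold change 0.88 ± 0.19 SE, edgeR adjusted p = 0.0360). The call was lost without any 1 of d22 replicates 1, 2, 3 and 6 or pbs replicates 2, 3, 5 and 6, with edgeR adjusted p from 0.0503 to 0.0852. Called length averaged 2278 bp in d22 and 1475 bp in pbs.

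The clearest lower region in spread was shared by Gm51485 and 1810008I18Rik, whose starts run in opposite directions (chr7:65801360-65806185). The d22 libraries had 100.4, 86.8, 85.7, 93.0, 89.5 and 97.1 CPM, and the pbs libraries 103.0, 124.8, 123.6, 119.6, 114.4 and 125.4 CPM. The groups did not overlap, though the highest d22 value and the lowest pbs value, both in replicate 1, were close (log2 fold change -0.36 ± 0.08 SE, edgeR adjusted p = 0.0392). Leaving out d22 replicate 2, 3, 5 or 6, or pbs replicate 2, 3, 4, 5 or 6, gave an edgeR adjusted p from 0.0730 to 0.116, and the replicate block gave 0.101. A promoter of each gene is shown with motif matches in capitals. These are CACGTG in 1810008I18Rik, after its start, and a CCAAT box in Gm51485, before its start. A further start of 1810008I18Rik in the same region, at position 65804033, held none of the motifs searched and is not printed.
1810008I18Rik (chr7:65802787-65803086, plus strand): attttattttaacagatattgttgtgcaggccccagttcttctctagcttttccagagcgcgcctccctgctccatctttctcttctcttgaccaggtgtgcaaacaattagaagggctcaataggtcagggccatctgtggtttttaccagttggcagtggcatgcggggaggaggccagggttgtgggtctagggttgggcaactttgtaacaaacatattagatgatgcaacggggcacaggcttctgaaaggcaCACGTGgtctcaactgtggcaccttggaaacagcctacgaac
Gm51485 (chr7:65802301-65802600, minus strand): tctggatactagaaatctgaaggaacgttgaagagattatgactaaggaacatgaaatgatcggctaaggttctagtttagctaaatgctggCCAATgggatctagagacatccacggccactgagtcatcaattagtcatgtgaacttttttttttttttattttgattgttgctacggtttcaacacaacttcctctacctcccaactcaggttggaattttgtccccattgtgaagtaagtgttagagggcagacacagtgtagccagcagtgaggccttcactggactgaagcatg

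The upper end of Gm40264 (chr5:9038447-9041757) had 39.2, 28.3, 29.6, 61.7, 46.8 and 27.1 CPM in d22 and 64.4, 91.4, 86.5, 78.0, 69.3 and 48.8 CPM in pbs. The d22 replicate 4 value lay above that of pbs replicate 6, so the groups overlapped (log2 fold change -0.93 ± 0.20 SE, edgeR adjusted p = 0.0304). The call was lost without any 1 of d22 replicates 1, 2, 3 and 6 or pbs replicates 2, 3, 4 and 5, with edgeR adjusted p from 0.0552 to 0.0851. The region at the other end of the same gene, Gm40264 (a), had 27.8 ± 3.06 CPM in d22 and 21.9 ± 10.7 CPM in pbs (SD, n = 6 each), with a log2 fold change of 0.37 ± 0.28 (SE, edgeR adjusted p = 0.688).

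**Figure D4:**
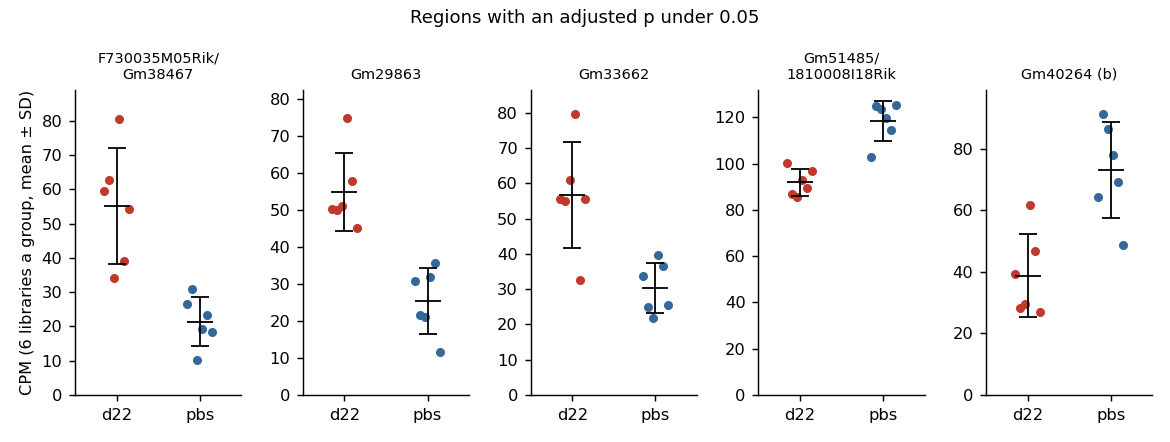
CPM (vertical axis, starting at 0, one scale per panel) of the 5 regions with an adjusted p under 0.05 in 6 d22 libraries (left, red) and 6 pbs libraries (right, blue), with mean and SD. The groups do not overlap at F730035M05Rik/Gm38467, Gm29863 and Gm51485/1810008I18Rik, and overlap at Gm33662 and Gm40264 (b).

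Among regions that did not pass, the largest evidence of lower tags was at 9030616G12Rik, with 33.9 ± 8.96 CPM in d22 and 60.6 ± 20.5 CPM in pbs (SD, n = 6 each), with a log2 fold change of -0.85 ± 0.23 (SE, edgeR adjusted p = 0.106). Without pbs replicate 6, a library that reduced the difference, the log2 fold change was -0.97 and passed (edgeR adjusted p = 0.0485). The region did not pass without any other single library. Gm33543 had 66.7 ± 19.98 CPM in d22 and 107.7 ± 22 CPM in pbs, and Gm32801 had 23.6 ± 9.44 CPM in d22 and 45.3 ± 12.8 CPM in pbs (SD, n = 6 each). On the higher side, AU020206 had 54.1 ± 20.9 CPM in d22 and 32.5 ± 2.32 CPM in pbs (log2 fold change 0.71 ± 0.19 SE, edgeR adjusted p = 0.112). Its groups did not overlap, the lowest d22 value being 37.5 CPM and the highest pbs value 35.6 CPM. Gm3734 had 71.6 ± 25.6 CPM in d22 and 38.7 ± 16.7 CPM in pbs (log2 fold change 0.89 ± 0.26 SE, edgeR adjusted p = 0.148). Without pbs replicate 4, which also reduced the difference, the log2 fold change was 1.12 and passed (edgeR adjusted p = 0.0488). Again no other single omission gave a pass. Gm15889, 6852 bp from the endoplasmic reticulum stress gene Herpud1, had 61.8 ± 9.39 CPM in d22 and 45.2 ± 9.54 CPM in pbs (edgeR adjusted p = 0.236). DESeq2, which called 2.2% of all regions, passed 9030616G12Rik, Gm33543, Gm32801 and AU020206 (DESeq2 adjusted p = 0.03175, 0.0327, 0.0306 and 0.0334). The replicate block, with 1.03% of all regions passing, passed Gm33543 and Gm3734 (edgeR adjusted p = 0.04997 and 0.0268).

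A region's tag count grows with the length called as peak, and the sign of the change was the same for both in 339 of 445 regions. All 5 regions that passed differed in called length in the same direction as in tags, by -0.80 to 1.01 on the log2 scale. By limma 0 of the 445 regions passed for called length, nor did any of all 12375 (0%), and 0 passed for tags per kb of called length (background 0.0404%, 0.0323% higher and 0.00808% lower). Called length over all 445 regions summed to 738 ± 96.7 kb in d22 and 787 ± 89.4 kb in pbs (SD, n = 6 each), in 614 ± 44.6 peaks in d22 and 610 ± 55.4 peaks in pbs. The groups overlapped in both.

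**Figure D5:**
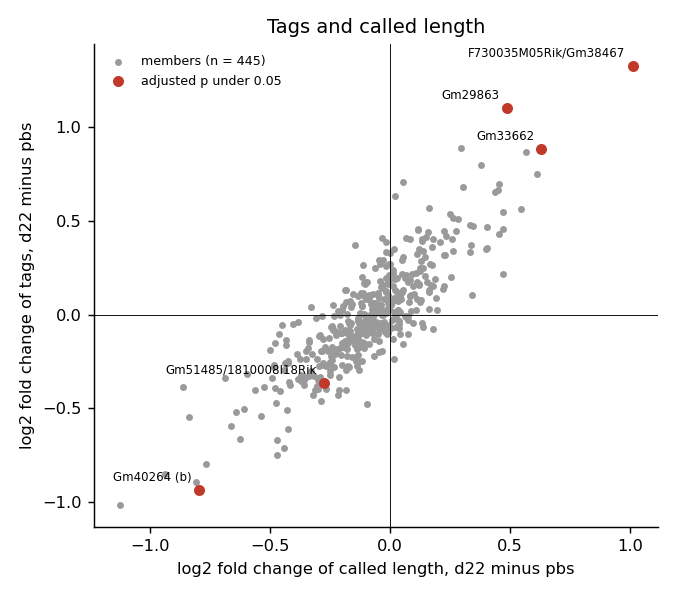
Log2 fold change of tags (vertical axis) against that of called length (horizontal axis), both d22 minus pbs, for 445 regions at noncoding gene ends, with the 5 of adjusted p under 0.05 in red and named. The regions lie along a rising diagonal, and all 5 lie on the same side of 0 on both axes.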

How the data were processed

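H3K9ac peak lists of 12 libraries (6 titled d22, 6 titled pbs) were analysed; the pooled inputs were not analysed here. Per the submitters' processing notes, CASAVA 1.8, Novoalign and MACS 1.4.2 were used with build mm10. Per the file headers, peaks were called per library against 1 control library per group (12526421 tags for d22, 10409931 for pbs) at a p-value cutoff of 1e-05 and an effective genome size of 1.87e+09, and tags were 48 bp in pbs replicates 1, 4 and 6 and 49 bp elsewhere. The authors deposited for each peak a raw tag count, a score (minus log10 of the p-value, times 10), a ratio of fold enrichment, and the FDR as a percent, the last of which was not used. Nothing was scaled by the authors in the counts.

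Overlapping peaks were merged, and a library's tags and called length in a region are sums over its peaks there. Genes came from RefSeq (GRCm38.p6, 49997 genes, the coordinates of mm10), as did promoter and microRNA sequences. Tags in the 12375 shared regions were tested with edgeR 4.0.16 (quasi-likelihood, robust, TMM, group only, Benjamini-Hochberg at 0.05) in R 4.3.3. Standard errors were taken as the size of the change over the square root of its F statistic. Called length and tags per kb were tested with limma 3.58.1 on log2 values, and DESeq2 1.42.0 was an alternative. Simulated tag counts of independent libraries were run through edgeR, DESeq2 and limma on log2 CPM. The limma tests of called length, tags per kb and fold enrichment were not simulated.

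The members and gene lists were chosen with earlier results of these data known. Regions named were those passing, the 6 with the smallest p in each direction, the 8 with the highest CPM and those at listed genes, 97 in all; most tRNA regions among them are given by counts and ranges, and a few further regions (Mir137, Mir203, the Mir17 cluster, Gm24950, Gm23971, Scarna2 and Gm40264 (a)) were added after their values were seen. The permutation test planned for the tag share is not reported, since it would be a p for a score over chosen members. No library pair held the same counts (chi-square per degree of freedom 2.41 to 10.3 over 66 pairs). Tags were counted over each library's own peaks, so these values cannot tell whether a pair came from the same animal or immunoprecipitation. Other alternatives were another scaling, a minimum of 50 tags, a score of at least 100, a join of 100 bp, a window of 500 bp, 49 bp libraries alone, the authors' fold enrichment, a replicate block, and leaving out each library.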

Additional observations from a re-analysis of the deposited data

Results flagged for a closer look

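In all, 7 values stood apart from the rest of their group of 6 libraries, of 142 groups looked at, and chance marks about 1 group in 20. Of these, 6 were in d22 replicate 4, which listed the most peaks. At Rnu2-10 it had 116.7 CPM, with the next highest d22 library at 68.4 CPM. At AU020206 it had 93.9 CPM, with the next at 57.9 CPM. At Chaserr it had 118 CPM, with the next lowest d22 library at 211 CPM. At Snhg5 it had 27.5 CPM, with the next at 52.7 CPM. At the tRNA run n-TKctt16, n-THgtg8, n-TGtcc7 and n-TEctc13 it had 46.5 CPM, with the next at 101 CPM. Its share of shared-region tags in tRNA regions was 0.176%, with the next at 0.225%. The other was pbs replicate 1 at Bvht, at 49.9 CPM, with the next at 26.2 CPM. None of these regions passed the group test.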

How the results depend on the processing

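The count of 5 regions passing (1.12%) was 11 with DESeq2 (background 2.20%), 19 with library totals as the only scaling (background 3.67%), 2 with peaks of a score of at least 100 (0.699%, background 0.878%), 1 with 49 bp libraries alone (background 0.315%), 0 for tags per kb (background 0.0404%) and 72 for the authors' fold enrichment (16.2%, background 20.2%, 1 of the 72 higher in d22). Leaving out a library gave 1 to 6, with 3 without d22 1, 2 without d22 2, d22 3, d22 6 or pbs 5, and 1 without pbs 2 or pbs 3 (background 0.517% to 1.12%). The count was within 1.5 times of 5 under the other settings. Library totals split the 19 into 2 higher and 17 lower. The median log2 fold change, -0.03, was -0.24 with library totals, where all regions had -0.22, 0.0629 for tags per kb (all 0.08) and -0.33 for fold enrichment (all -0.30), and -0.0295 to -0.0059 on leaving out a library. The tag share difference, -0.0450 percentage points, was -0.0747 of all filtered tags (0.382% in d22 and 0.457% in pbs, a log2 ratio of -0.26, against -0.03 for the share of tags in shared regions) and -0.0611 to -0.0304 on leaving out a library. For called length, 0 to 3 regions passed on leaving out a library, 3 without d22 1 (background 0.283%) and 1 without pbs 6 (background 0.00808%). With the replicate number as a block, 6 regions passed and the tag share difference was -0.0450. Same-numbered libraries had correlations of deviations from -0.006 to 0.160, and only number 2 matched best with its own. The labels give no pairing by number, and weak correlations cannot settle whether one exists. Gm33662 turned to -0.01 for fold enrichment, where the median of all regions was -0.30, and F730035M05Rik/Gm38467 (0.32) and Gm29863 (0.30) lost their calls. Gm33662 was also lost with library totals (edgeR adjusted p = 0.0765) and with a score of at least 100 (0.175), and Gm51485/1810008I18Rik with that score (0.0790) and with the block (0.101). All 5 calls were lost for 49 bp libraries alone, which drops 3 pbs libraries, with log2 fold changes of 1.30, 1.04, 0.99, -1.11 and -0.39, against 1.33, 1.10, 0.88, -0.93 and -0.36 (F730035M05Rik/Gm38467, Gm29863, Gm33662, Gm40264 (b) and Gm51485/1810008I18Rik). All 5 were lost for tags per kb, at 0.37, 0.70, 0.25, -0.15 and -0.09 in the same order. The causes were not tested. Of the 92 named regions that did not pass, 18 passed under some alternative. The authors' fold enrichment called 13 of the 92, where 20.2% of all 12375 regions passed. Library totals called 7 (3.67% of all regions) and DESeq2 called 5 (2.2% of all regions). Depth limits the weak regions, whose libraries held as few as 8 tags (F730311O21Rik, Smkr-ps and Gm36897).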
